A study of Mus musculus with 2 samples.

Results

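Atoh1, Neurod1, Neurod2, Nhlh1 and Nhlh2, 5 genes of the basic helix-loop-helix (bHLH) family known from the cerebellar granule cell lineage, were followed through single medulloblastoma cells. All 5 are listed in both deposited tables, out of 16055 genes that the tables share. They were chosen by name rather than by their values, though with earlier results of these data known. The cells came from mice of the genotype hGFAPcre;Ptchc/c. In these mice Cre recombinase under a GFAP promoter acts in neural progenitors and glia and targets Ptch, the receptor that holds Sonic hedgehog signalling in check. Drop-seq isolates single cells in droplets and reads the 3′ ends of their transcripts, each copy marked by a molecular barcode (UMI). It was run once on tumours of postnatal day 12 (P12) and once on tumours of postnatal days 24 to 30 (P24-30). Both libraries carry the same genotype, no tumour-free control was analysed here, and the sources used here do not give the number of animals.

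Granule neuron progenitors divide in the outer layer of the young cerebellum under Sonic hedgehog, and then leave the cycle, migrate inward and mature. Atoh1 is the bHLH activator that specifies these progenitors and keeps them able to divide. Neurod1 drives their differentiation, Neurod2 belongs to the same neuronal differentiation subfamily, and Nhlh1 and Nhlh2 (also called Nscl1 and Nscl2) are made in newly formed neurons. Such activators bind DNA as dimers with the E proteins Tcf3, Tcf4 or Tcf12, at the 6-base E box written CANNTG, and the Id proteins block them by binding the E proteins.

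On the mouse build mm10, all 5 members are protein-coding genes. Atoh1 has 1 exon on chromosome 6 (64729125 to 64731245, plus strand). Neurod1 lies on chromosome 2 (79452521 to 79456751, minus strand), Neurod2 on chromosome 11 (98325415 to 98329648, minus strand), Nhlh1 on chromosome 1 (172052292 to 172057573, minus strand) and Nhlh2 on chromosome 3 (102010076 to 102015492, plus strand). Exons of Neurod1 overlap those of Cerkl on the same strand and of Gm26755 on the other, and the sources used here do not say whether strand was used in counting. Those neighbours held 58 and 47 UMIs at P12, against 11648 of Neurod1. At P24-30 they held 145 and 41 UMIs, against 10828.

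The bases just before the gene starts are printed for Atoh1, which was low in neuron-like cells, and for 3 members that were high there. They come from RefSeq on GRCm38.p6, where 5 of 5 members matched, run 5′ to 3′ on the gene's strand, and leave out bases inside the GENCODE gene. Capitals mark each CANNTG, a motif that reads the same on both strands.
Atoh1 (chr6:64728875-64729124, plus strand): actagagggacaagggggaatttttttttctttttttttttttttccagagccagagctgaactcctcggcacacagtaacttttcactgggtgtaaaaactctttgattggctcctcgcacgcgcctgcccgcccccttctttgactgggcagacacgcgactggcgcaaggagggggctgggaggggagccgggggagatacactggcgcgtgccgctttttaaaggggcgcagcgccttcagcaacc
Neurod2 (chr11:98329649-98329895, minus strand): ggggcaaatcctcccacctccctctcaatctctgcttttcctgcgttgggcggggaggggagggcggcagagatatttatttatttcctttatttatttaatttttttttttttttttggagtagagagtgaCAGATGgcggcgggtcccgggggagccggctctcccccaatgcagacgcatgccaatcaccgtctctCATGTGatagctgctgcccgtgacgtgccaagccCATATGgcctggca
Nhlh1 (chr1:172057597-172057846, minus strand): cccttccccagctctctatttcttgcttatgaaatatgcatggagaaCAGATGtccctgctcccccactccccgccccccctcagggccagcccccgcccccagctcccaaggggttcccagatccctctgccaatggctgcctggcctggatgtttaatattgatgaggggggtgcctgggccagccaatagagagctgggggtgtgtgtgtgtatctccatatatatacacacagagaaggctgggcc
Nhlh2 (chr3:102009895-102010075, plus strand): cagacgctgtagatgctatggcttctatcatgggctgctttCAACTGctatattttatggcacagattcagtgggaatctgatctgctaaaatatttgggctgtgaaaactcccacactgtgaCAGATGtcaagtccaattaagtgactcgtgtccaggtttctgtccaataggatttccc
The 250 bases before the RefSeq start of Atoh1 hold no CANNTG, while those of Neurod2 hold 3, of Nhlh2 2, and of Nhlh1 and Neurod1 1 each. Such a motif is common: 66.2% of 32851 promoter windows of this length hold at least 1, 31.8% at least 2 and 12.2% at least 3. The form CAGATG, searched on both strands, occurs once in each of the Neurod2, Nhlh1 and Nhlh2 windows and in 14.4% of all windows. These matches describe letters only.

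Barcodes under 500 UMIs or above 20% mitochondrial UMIs were dropped, which left 5723 of 6000 P12 barcodes (median 1805 UMIs) and 4796 of 4991 P24-30 cells (median 2193.5). Each library was clustered alone and without the 5 members, and clusters were named from fixed marker lists. In both libraries, cells outside the glial, immune, vascular and choroid plexus-like clusters form the main population, 5490 cells at P12 and 4634 at P24-30. Levels are in CPM, a gene's share of all UMIs of the summed cells scaled to 1000000, and intervals in parentheses are exact 95% intervals for counting error only. With 1 library per age there are no replicates and no tests, so a difference is called by size, at least 2-fold. Fewer cells of a kind and less RNA per cell cannot be told apart in any summed level.

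At P12 the members split sharply between dividing and neuron-like cells. Atoh1 was 5.96-fold lower in neuron-like cells (3.79 to 9.95), while Neurod1, Neurod2, Nhlh1 and Nhlh2 were 3.48 to 25.2 times higher. The neuron-like class was 1 cluster of 584 cells, with 14862 CPM of the 16 neuron markers. The cycling class held 4 clusters with 2790 cells and 14590 CPM of the 28 cycling markers. Clusters 5 and 8 (312 and 91 cells) had 10720 and 12312 CPM of cycling markers but under 3 markers raised, so they were not classed. With them in the cycling class, an alternative added after seeing the data, all 5 members stayed past 2-fold. All 5 members passed 2-fold, 4 higher and 1 lower, where 11.6% of 10196 genes with at least 50 UMIs were at least 2-fold higher and 15.7% at least 2-fold lower (27.3% either way).

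Atoh1, the progenitor factor, was at 124 CPM in cycling cells (853 UMIs) and 20.8 CPM in neuron-like cells (19 UMIs), a ratio of 0.168 (0.100 to 0.264). Microglia-like cells, which should lack all 5 genes, held 9.29 CPM of it (2 UMIs, interval 1.12 to 33.5), so the neuron-like level cannot be told from that background. Oligodendrocyte lineage-like cells were near it, at 25.3 CPM (8.20 to 59.0). The 40 astrocyte and Bergmann glia-like cells were not, at 171 CPM (14 UMIs, 93.7 to 287). At a coarser clustering (resolution 0.5) the Atoh1 log2 ratio moved from -2.58 to -0.84, which no longer passes 2-fold.

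Neurod1, the differentiation factor, was already at 594 CPM in cycling cells and reached 5956 CPM in neuron-like cells, a ratio of 10.02 (9.62 to 10.4). Both levels stood above the 149 CPM (102 to 210) of microglia-like cells. Of the 32 Neurod1 UMIs in microglia-like cells, 13 were in 1 cell, which the counting interval does not cover. Neurod2, a relative of Neurod1, showed the widest ratio of the 5 on the fewest molecules. It was at 4.66 CPM (32 UMIs) against 117 CPM (107 UMIs), or 25.2-fold (16.8 to 38.6). In cycling cells Neurod2 lay within the interval of microglia-like cells (9.29 CPM, 1.12 to 33.5).

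Nhlh1 was at 77.0 CPM in cycling and 531 CPM in neuron-like cells, a ratio of 6.89 (6.08 to 7.81). Its paralog Nhlh2 was at 240 and 833 CPM, a ratio of 3.48 (3.19 to 3.79). In microglia-like cells each was at 23.2 CPM (7.54 to 54.2). The neuron-like class made up 10.2% of kept P12 cells and 7.68% of their UMIs, but held 65.6% of all Neurod2 UMIs, 46.6% of Neurod1, 33.7% of Nhlh1, 22.6% of Nhlh2 and 1.17% of Atoh1. Markers of other neurons were present in the neuron-like class: 4 of 6 interneuron markers were detected, with Pax2 and Lhx5 at 0, and summed to 762 CPM against 339 CPM in cycling cells. Against the other P12 cells, markers of unipolar brush cells (Eomes and Lmx1a) had a mean log2 fold of 0.764, with 1 raised. For the interneuron markers it was 0.180, with 1 raised. The part of such neurons in these ratios was not tested.

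Within the main population the 5 genes did not follow a single order of clusters. Atoh1 was highest, at 291 CPM (253 to 334), in cluster 0 (376 cells), which had little of either marker list, 1650 CPM of cycling and 2513 CPM of neuron markers. Neurod1 had its lowest main-population level there, 151 CPM. Genes of choroid plexus and vessels, Ttr, Enpp2 and Rgs5, were among its leading genes. Its choroid plexus markers had a mean log2 fold of 2.90, but 2 were raised where a name needed 3. The cluster therefore stayed unnamed and in the main population. Its 4 choroid plexus markers, all detected, summed to 6345 CPM against 38.4 CPM in the neuron-like cluster, and their part in the Atoh1 level was not tested.

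Cluster 12 (941 cells, led by Gm17322 and the Notch target Hey1) came next in Atoh1, with 219 CPM (196 to 244), and its choroid plexus markers were at 33.9 CPM. Neurod1 was at 308 CPM in these cells. Among dividing clusters, cluster 4 (443 cells, led by the replication genes Ung and Hells) had 186 CPM of Atoh1 (160 to 215) and 325 CPM of Neurod1. Cluster 2, led by mitotic genes such as Ube2c, and cluster 3, led by histone genes, had both at like levels, with Atoh1 at 118 CPM in each and Neurod1 at 519 and 562 CPM. Within the cycling class, then, cells with replication-licensing genes carried more Atoh1 and less Neurod1 than cells in mitosis, with intervals that do not meet.

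Cluster 10 (396 cells, led by Chrna3, Pdzrn3 and Tubb3) held Atoh1 and the later members together. Its Atoh1 level was 149 CPM (123 to 180), well above that of the neuron-like cluster. Neurod1 was at 1422 CPM, Nhlh1 at 211, Nhlh2 at 504 and Neurod2 at 10.96 (4.73 to 21.6). All of these lay between the cycling and the neuron-like values. For Neurod2 the interval met that of the cycling class (4.66 CPM, 3.19 to 6.58).

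Cluster 7 (93 cells) combined 24831 CPM of cycling markers with 7908 CPM of neuron markers. Its Atoh1 level was that of the neuron-like class, 20.1 CPM (6.54 to 47.0). The others lay between the summed cycling and the neuron-like values, at 2899 CPM of Neurod1, 44.3 of Neurod2, 181 of Nhlh1 and 556 of Nhlh2. No doublet caller was run, and the part of droplets with 2 cells was not tested. Its median depth was 2298 UMIs, against 2476 in mitotic cluster 2 and 1423 in the neuron-like cluster. Without cluster 7 in the cycling class the Neurod1 log2 ratio was 3.55 in place of 3.33, and all 5 members stayed past 2-fold. The plot of member levels by P12 cluster sets these clusters side by side.

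**Figure D1:**
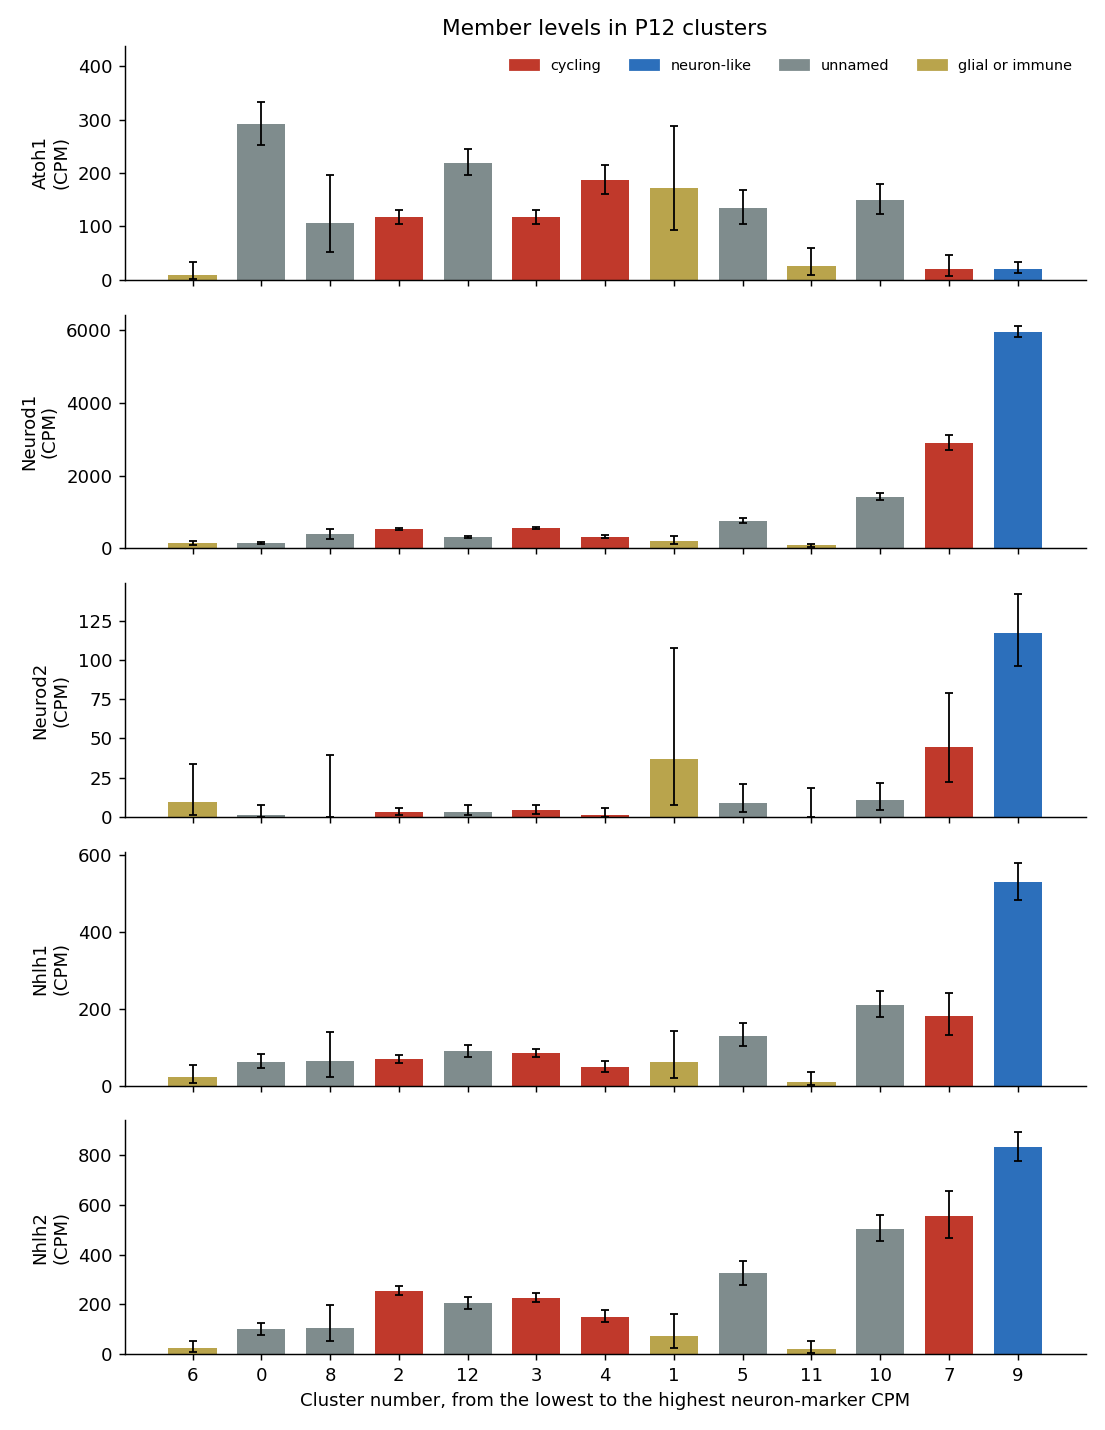
Level of each member in CPM (bars, linear axes) in the 13 P12 clusters, ordered by neuron-marker CPM and coloured by class; lines are exact 95% counting intervals. Atoh1 is highest in clusters 0 and 12 and at about 20 CPM in clusters 7 and 9. The other members are highest in cluster 9.

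In the P24-30 table, each cell's name begins with 1 of 16 tags, numbered G1 to G16, whose meaning the labels do not give. The 14 tags with at least 50 kept cells were classed by the same marker lists: G1, G2 and G16 as cycling, G3, G5 and G6 as intermediate, and G4, G7 and G10 to G15 as neuron-like. A tag is not a pure class. By clusters of the same library, 99.8% of G16 cells were cycling, while neuron-like cells made up 49.5% of G12, 43.8% of G13 and 5.69% of G7. Cycling cells made up 92.8% of G3, 79.8% of G6 and 66.6% of G5, the intermediate tags. Among the neuron-like tags they made up 46.4% of G7 and 41.2% of G4, and at most 13.03% of the others (G15).

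Across these tags the Neurod and Nhlh genes climbed with the neuron markers, and Atoh1 did not. Neurod1 ran from 398 CPM in G3 through a median of 899 CPM to 3074 CPM in G12. All 8 neuron-like tags lay above the 6 others, from 686 CPM in G7 upward, and 5 of 13 neighbours in the order had intervals that did not meet. Its values were 630 CPM in G16, 546 in G1 and 452 in G2 among cycling tags, and the lowest value was in an intermediate tag.

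Neurod2 ran from 2.91 CPM in G16 (4 UMIs) to 46.9 CPM in G11 (9 UMIs), with a median of 12.1. Nhlh1 ran from 69.8 CPM in G16 through a median of 154 to 453 CPM in G12. Nhlh2 ran from 198 CPM in G2 through a median of 326 to 871 CPM in G11. For these 3 genes every pair of neighbours in the order had meeting intervals (0 of 13 apart).

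Atoh1 spanned less than 3-fold, from 40.4 CPM in G4 through a median of 71.5 to 119 CPM in G6, and no neighbours were apart. It was highest in G6 (99.8 to 141), G15 (118 CPM, 91.7 to 150), G7 (118 CPM, 95.03 to 145) and G5 (102 CPM, 82.1 to 124). By neuron-marker level these tags lay between the cycling ones and those richest in neuron markers. By clusters, though, 79.8% of G6, 66.6% of G5 and 46.4% of G7 cells were cycling, against 13.03% of G15. G10 and G4 also lay between the cycling tags and the richest ones in neuron markers (5342 and 6108 CPM). Their Atoh1 levels were 59.2 CPM (16.1 to 152) and 40.4 CPM (22.6 to 66.7). The cycling tags G1, G2 and G16 were at 86.2, 75.3 and 67.6 CPM. G12, the tag with the most neuron markers, was at 42.6 CPM (23.3 to 71.5).

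**Figure D2:**
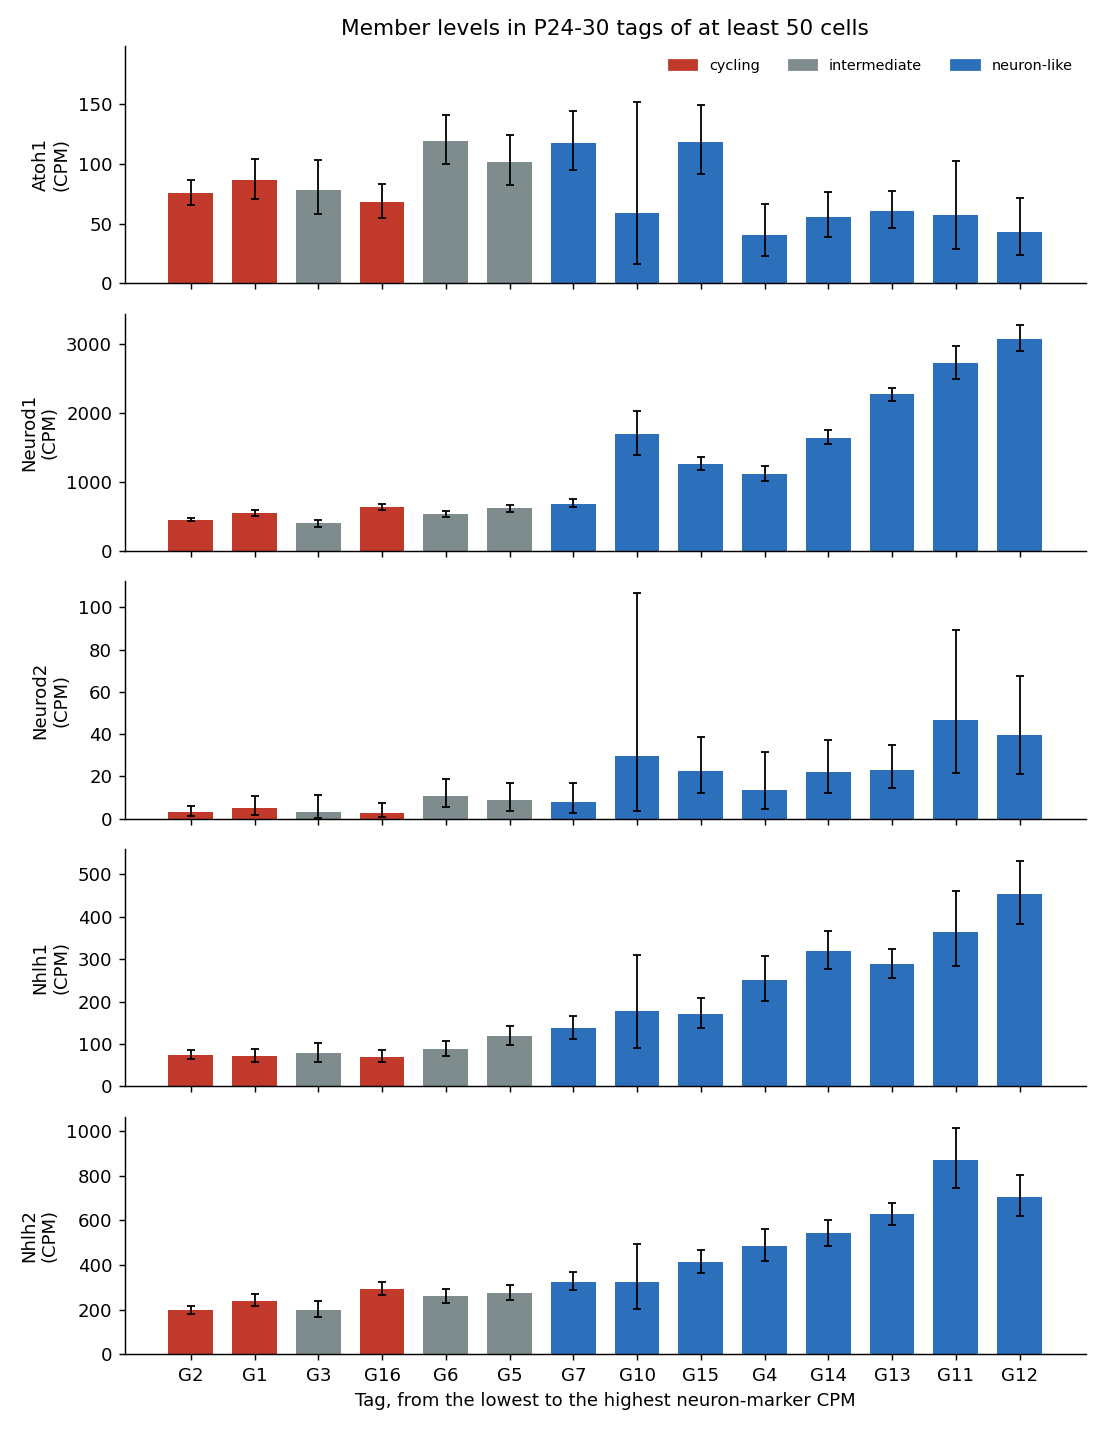
Level of each member in CPM (bars, linear axes) in the 14 P24-30 tags of at least 50 cells, ordered by neuron-marker CPM and coloured by class; lines are exact 95% counting intervals. Neurod1 goes from 398 to 3074 CPM toward the right, while Atoh1 is highest in tags of the middle, at 119 CPM in G6 and 118 CPM in G7 and G15. G4, also in the middle, has the lowest Atoh1 level, 40.4 CPM.

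Summed over the neuron-like and the cycling tags, Atoh1 was level, at 75.8 against 75.9 CPM, a ratio of 0.999 (0.858 to 1.16). The neuron-like tags include G7 and G4, 46.4% and 41.2% cycling cells by cluster, so the sums do not set neuron-like cells alone against cycling ones. Neurod1 was at 1676 against 519 CPM, 3.23-fold (3.09 to 3.38). Neurod2 was at 21.5 against 3.55 CPM, 6.07-fold (3.66 to 10.6). Both paralogs were higher as well, Nhlh1 at 258 against 72.5 CPM, 3.56-fold (3.16 to 4.01), and Nhlh2 at 523 against 232 CPM, 2.25-fold (2.10 to 2.42). So 4 of 5 members passed 2-fold upward and 0 downward, where 12.5% of 10428 genes were at least 2-fold higher and 5.4% at least 2-fold lower, and the median of all genes was 0.21 on the log2 scale.

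The Atoh1 value depended on how the groups were drawn. With the P24-30 clusters in place of the tags, an alternative added after seeing the data, Atoh1 was at 87.4 CPM in cycling cells and 32.4 CPM in neuron-like cells (log2 ratio -1.43), and all 5 members passed 2-fold. Over all alternatives of the tag comparison, 12.2% to 29.4% of all genes passed 2-fold. The tags also hold cells outside the main population, 77 of 2034 in the neuron-like and 18 of 1662 in the cycling tags. Without them, also an added alternative, the Atoh1 ratio was 1.04 (0.894 to 1.22), and the other members stayed past 2-fold. With only tags G12 and G16, the log2 ratio of Atoh1 was -0.67 and that of Nhlh2 1.27. Tag G8, 35 cells that were all microglia-like, held 1 UMI each of Atoh1 and Neurod1 and none of Neurod2, Nhlh1 or Nhlh2, with exact intervals up to 43.2 CPM. The other 20 microglia-like cells, under other tags, had 465 CPM of Neurod1 (298 to 692) and 271 CPM of Nhlh2.

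Between the ages, no member differed 2-fold in the main population. Before scaling, Atoh1 was at 141 CPM at P12 and 83.9 at P24-30, Neurod1 at 1018 and 924, Neurod2 at 13.9 and 10.8, Nhlh1 at 125 and 142, and Nhlh2 at 294 and 340. The median gene was itself at 0.825 of its P12 level, so ratios are given relative to it. Those were 0.721 for Atoh1 (0.665 to 0.782), 1.10 for Neurod1 (1.07 to 1.13), 0.943 for Neurod2 (0.740 to 1.20), 1.37 for Nhlh1 (1.28 to 1.48) and 1.40 for Nhlh2 (1.34 to 1.47). Not divided by the median gene, Neurod1 turned to a log2 ratio of -0.14. None of the 5 members passed 2-fold, where 11.2% of 11300 genes were at least 2-fold higher and 3.65% at least 2-fold lower. With 1 library each, age and preparation cannot be told apart.

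Within classes drawn from clusters, the unscaled CPM moved in different directions. In neuron-like cells Neurod1 was at 5956 CPM at P12 and 4037 at P24-30, a ratio of 0.678 (0.652 to 0.705), and Neurod2 at 117 and 53.8, a ratio of 0.458 (0.330 to 0.631). Nhlh1 was level there, at 531 and 534 CPM, and Nhlh2 was at 833 and 1009. In cycling cells Atoh1 was at 124 and 87.4 CPM, a ratio of 0.703 (0.636 to 0.778), while Nhlh1 and Nhlh2 had ratios of 0.974 each. The cycling classes are not alike at the ages. At P24-30 the class includes a cluster led by Ung, Mcm3 and haemoglobin genes (935 cells) and one led by Cenpa and Gm11266 (247 cells), whereas P12 clusters 12 and 5, with some of the same leading genes, lie outside it.

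To see which members a single cell carried, each cell was thinned to 1000 UMIs, leaving 5349 main-population cells at P12 and 4435 at P24-30 (141 and 199 shallower cells were left out). A UMI of Atoh1 was then found in 12.2% of P12 cells, of Neurod1 in 39.6%, of Neurod2 in 1.496%, of Nhlh1 in 12.2% and of Nhlh2 in 23.4%. Without thinning these shares were 22.1%, 52.5%, 2.40%, 19.4% and 38.3%. Among 84 microglia-like P12 cells, with a median depth of 2118 UMIs against 1833, the thinned shares were 1.19% for Atoh1, Neurod2 and Nhlh1, 8.33% for Neurod1 and 4.76% for Nhlh2.

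Sorting cells by their neuron-marker UMIs, rather than by cluster, gave a graded picture at both ages, though Atoh1 fell only at the higher steps. At P12 an Atoh1 UMI was found in 14.6% of 513 cells with 0 neuron-marker UMIs (11.7 to 18.0), in 15.1% at 2 to 3, in 5.36% at 8 to 15 and in 1.12% of 267 cells at 16 or more (0.232 to 3.25), the share of microglia-like cells. Neurod1 went from 19.9% through 26.4% and 83.4% to 99.3% over the same steps. Even at 0 neuron-marker UMIs, its interval (16.5 to 23.6) lay above that of microglia-like cells (3.42 to 16.4). That interval did meet those of 34 astrocyte and Bergmann glia-like cells (20.6%, 8.70 to 37.9) and 98 oligodendrocyte lineage-like cells (9.18%, 4.29 to 16.7).

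Nhlh1 went from 6.04% to 39.0% and Nhlh2 from 15.01% to 54.3% between the lowest and the highest step, with most of the gain from 4 UMIs up. Neurod2, the member with the fewest UMIs, was found in 0.195% of cells at 0 and 0.804% at 4 to 7. Its share was 5.02% at 8 to 15 and 11.2% at 16 or more. At P24-30 Atoh1 was found in 6.62% at 0 (4.37 to 9.54), 9.85% at 2 to 3 (8.28 to 11.6) and 8.16% at 4 to 7. It was then found in 4.80% at 8 to 15 (3.37 to 6.61), which meets the interval at 0, and in 0.431% at 16 or more. Between the lowest and the highest step there, Neurod1 went from 26.0% to 96.1% and Neurod2 from 0 of 393 cells to 7.76%. Nhlh1 went from 4.33% to 45.3% and Nhlh2 from 11.7% to 57.8%. The 0 of 393 allows a share of up to 0.763%.

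**Figure D3:**
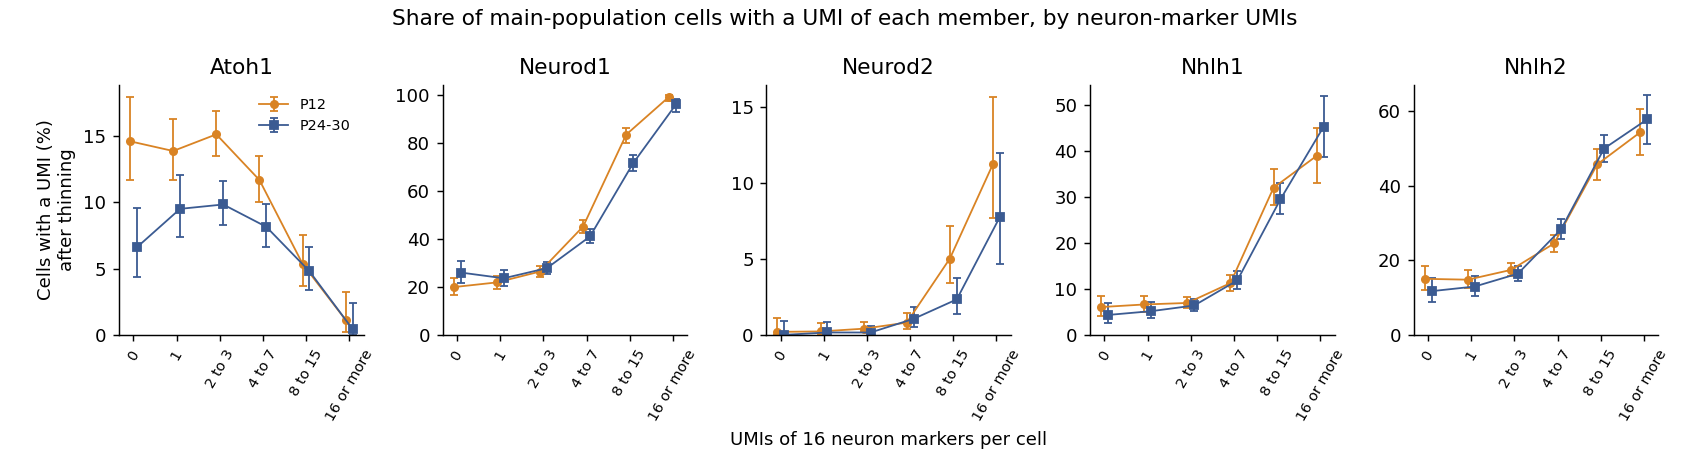
Share of main-population cells with a UMI of each member (percent, linear axes of different height) against the summed UMIs of 16 neuron markers in the same cell, after thinning to 1000 UMIs, for P12 (circles) and P24-30 (squares) with exact 95% intervals. Atoh1 is found in 1.12% of P12 and 0.431% of P24-30 cells at 16 or more marker UMIs, where Neurod1 is found in 99.3% of P12 and 96.1% of P24-30 cells.

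Among cells with at most 3 neuron-marker UMIs, Atoh1 differed with the cycling markers at P12, while at P24-30 the intervals met. At P12 it was found in 23.6% of cells with 0 or 1 cycling-marker UMIs (19.8 to 27.8) and in 10.7% of cells with 12 or more (8.98 to 12.6). At P24-30 those shares were 8.66% (6.51 to 11.2) and 8.93% (5.86 to 12.9). Neurod1 was found more often in the cells with 12 or more, at 30.2% against 15.6% at P12 and 32.5% against 22.4% at P24-30. The difference between ages was not tested, as each has 1 library, and 374 thinned cells of the Ttr-led cluster 0 had Atoh1 in 24.1%.

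Cells with at least 6 cycling-marker and at least 8 neuron-marker UMIs numbered 173 at P12 and 95 at P24-30. Neurod1 was found in 79.8% and 68.4% of them and Nhlh2 in 45.1% and 49.5%, while Atoh1 was found in 4.62% (2.02 to 8.91) and 3.16% (0.656 to 8.95). Dividing cells with fewer neuron-marker UMIs had Neurod1 in 33.0% and 34.6% and Atoh1 in 10.5% and 7.52%.

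Atoh1 cells carried the other members less often than cells without an Atoh1 UMI. At P12, 272 of 655 Atoh1 cells (41.5%, 37.7 to 45.4) had a UMI of another member, against 54.6% of the rest (53.2 to 56.1). At P24-30 these were 153 of 344 (44.5%, 39.1 to 49.9) against 56.2% (54.7 to 57.7). The P24-30 intervals met when at most 10% mitochondrial UMIs were allowed (48.7% against 55.5%), when cells were thinned to 500 UMIs (36.1% against 39.9%) and without thinning (72.3% against 73.6%). The P12 intervals stayed apart in those 3 settings.

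The pair of Atoh1 and Neurod1 had the widest gap of the Atoh1 pairs in percentage points, though not as a ratio. At P12, 171 of 655 Atoh1 cells had a Neurod1 UMI (26.1%, 22.8 to 29.6) against 41.5% of cells without Atoh1 (40.04 to 42.9). At P24-30 it was 105 of 344 (30.5%, 25.7 to 35.7) against 42.0% (40.5 to 43.6). Cells with both were therefore not rare among Atoh1 cells, though they were 171 of 5349 main-population cells at P12 and 105 of 4435 at P24-30. Neurod1 was low in them, with a median of 1 UMI against 2 in cells with Neurod1 alone, at both ages. Of the cells with Neurod1 alone, 26.3% at P12 and 29.3% at P24-30 were neuron-like, against 6.43% and 8.57% of cells with both. The part of class in the medians was not tested.

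Ordering cells by Neurod1 UMIs showed the same shift. Atoh1 was found in 14.98% of P12 cells with 0 Neurod1 UMIs, 11.6% with 1, 7.09% with 2 to 3 and 2.94% with 4 or more (1.72 to 4.67). At P24-30 the shares were 9.16%, 7.27%, 6.22% and 2.12% (0.973 to 3.98). Nhlh2 went up over these groups, from 16.5% to 51.4% at P12 and from 18.0% to 57.2% at P24-30, and so did Neurod2, from 0.371% to 8.997% and from 0.307% to 5.41%.

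Of the 10 pairs of members, the counts above and below were the same in each library. In 6 pairs, all those among Neurod1, Neurod2, Nhlh1 and Nhlh2, cells with one gene had the other more often than cells without it. In 3 pairs, Atoh1 with Neurod1, Nhlh1 and Nhlh2, they had it less often. These counts take the gene named first in the order Atoh1, Neurod1, Neurod2, Nhlh1, Nhlh2 as the one that splits the cells. Atoh1 with Neurod2 then met, with 3 of 655 Atoh1 cells at P12 and 0 of 344 at P24-30, which allows up to 0.872%. Split by Neurod2 instead, the P12 pair was apart, with Atoh1 in 3 of 80 Neurod2 cells (3.75%, 0.78 to 10.6) against 12.4% of the rest (11.5 to 13.3), and at P24-30 it met. For example, Nhlh2 was found in 36.8% of P12 cells with Nhlh1 and in 21.6% of those without it, and at P24-30 in 43.4% and 23.6%.

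**Figure D4:**
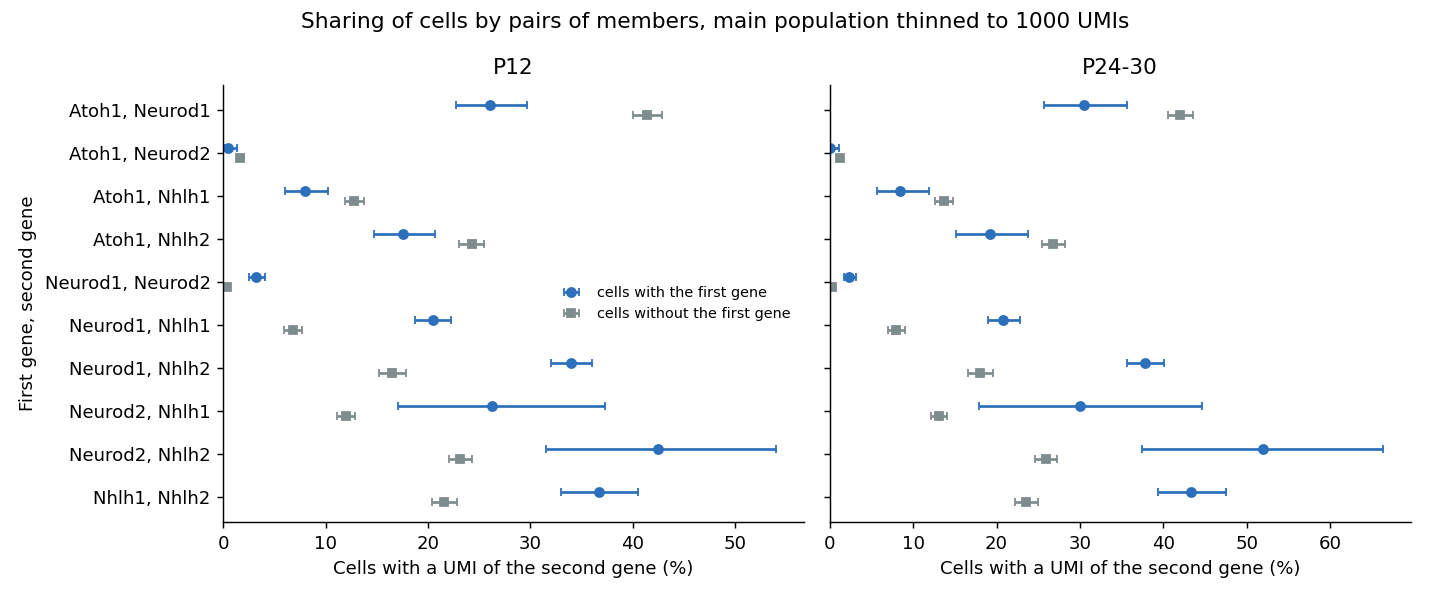
Share of main-population cells (percent, after thinning to 1000 UMIs) with a UMI of the second gene, among cells with (circles) and without (squares) a UMI of the first gene, for all 10 pairs in each library, with exact 95% intervals. The circle lies left of the square for Atoh1 with Neurod1, Nhlh1 and Nhlh2 and right of it for the 6 pairs without Atoh1.

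The pairs were also read within classes. Among neuron-like cells alone, all 10 pairs had meeting intervals at both ages. There Neurod1 was found in 522 of 539 P12 cells, and 13 cells had Atoh1, of which 11 also had Neurod1. With 17 P12 cells lacking Neurod1 and 13 carrying Atoh1, meeting intervals in this class cannot show that the pairing is absent. Among cycling cells at P12, Atoh1 with Neurod1 was still below (26.5% against 35.7%) and Neurod1 with Nhlh1 and with Nhlh2 above (11.9% against 5.56%, and 26.5% against 15.98%), and the other 7 pairs met. At P24-30 the cycling class gave 23.8% against 32.5% for Atoh1 with Neurod1, and 3 pairs above (Neurod1 with Nhlh1, Neurod1 with Nhlh2, and Nhlh1 with Nhlh2). In the remaining main-population cells, Atoh1 with Neurod1 was below at P12 (23.5% against 32.5%), while at P24-30 it met in the other direction (42.4%, 32.1 to 53.1, against 39.3%). It also met in the intermediate tags (28.7% against 31.0%) and was below in the neuron-like tags (39.0% against 52.1%).

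Whole combinations were mostly short. At P12, 39.8% of main-population cells had none of the 5, 37.0% had 1, 18.0% had 2, 4.86% had 3 and 19 cells had 4. At P24-30 the shares were 40.4%, 35.7%, 18.2% and 5.30%, with 16 cells at 4, and no cell in either library had all 5. Neurod1 alone (1019 P12 cells), Neurod1 with Nhlh2 (464), Nhlh2 alone (424) and Atoh1 alone (383) led at P12. In neuron-like cells 2 members per cell was the most frequent count, in 48.2% at P12 and 48.7% at P24-30, and 3 cells of 539 and 18 of 571 had none.

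Other genes of the same regulatory system were read from lists chosen by function. None of the 3 E proteins passed 2-fold at P12, between the tags or between ages, where 27.3%, 17.9% and 14.9% of all genes did. Tcf4 came nearest, at 3152 CPM in neuron-like and 1736 CPM in cycling P12 cells, 1.82-fold (1.74 to 1.89). Of the 4 Id inhibitors, 3 had at least 50 UMIs at P12, and Id1 and Id3 were at least 2-fold lower in neuron-like cells (15.7% of all genes). Id1 was at 8.77 against 44.3 CPM (ratio 0.198, 0.0848 to 0.395), and Id3 had 0 UMIs against 110, while Id2 was at 589 against 338 CPM. Between the P24-30 tags, Id3 was at 41.3 CPM in the neuron-like and 11.4 CPM in the cycling tags, the 1 Id gene past 2-fold (12.5% of all genes were at least 2-fold higher). That call ended when cells of the outside classes were left out of the tags, with 13.9 against 11.2 CPM (ratio 1.248, 0.841 to 1.85).

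Of 15 other neural bHLH genes, 8 had enough UMIs at P12, with 2 higher and 5 lower in neuron-like cells (11.6% and 15.7% of all genes). The list's median was -1.69 on the log2 scale, that of all genes -0.02. Bhlhe22, a neuronal bHLH gene, was at 136 against 18.9 CPM, 7.18-fold (5.57 to 9.26), and Neurod6 was at 224 against 99.0 CPM. The lower ones were Olig1, Olig2, and the Notch-linked genes Hes1, Hes6 and Hey1, with Olig1 at 9.87 against 177 CPM. Between the P24-30 tags 0 of 9 passed 2-fold either way, where 17.9% of all genes did. Between ages, Neurod4 was 4.72 times higher at P24-30 (3.50 to 6.47), and Olig1 and Hes1 were lower (0.417 and 0.323), relative to the median gene.

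Of 12 granule progenitor genes at P12, 5 were at least 2-fold lower in neuron-like cells (15.7% of all genes), 2 higher (11.6% of all genes) and 5 within 2-fold. The 2 higher are near the share of all genes. Gli1, the Sonic hedgehog target, was at 6.58 against 102 CPM (ratio 0.0642), Ccnd1 at 75.7 against 804 CPM, and Cxcr4 at 4.39 against 43.5 CPM. Pax6 and Zic1, which granule neurons keep making, were 2.05 and 2.46 times higher. Of 12 maturation genes, 7 had enough UMIs, with 2 higher, Sema6a (5.57-fold) and Nfix (2.17-fold), and 1 lower, Etv1 (0.249), where 11.6% and 15.7% of all genes were higher and lower. Gabra6, a receptor subunit of mature granule neurons, had 2 UMIs in neuron-like P12 cells and 0 in cycling ones. The P24-30 tags differed less. There 1 of the 12 progenitor genes was lower (Gli1, 0.469), 1 was higher (Barhl1, 2.06-fold) and 10 were within 2-fold. Ccnd1 and Cxcr4 were at ratios of 0.868 and 0.917. Of 6 maturation genes with enough UMIs, 1 was higher (Sema6a, 3.03-fold) and 0 lower. Of all genes, 12.5% were higher and 5.4% lower between the tags.

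The genes most like each member over the 14 tags were found among 6260 genes by the Pearson correlation of log2(CPM + 10), given as a description since tags share 1 library. For Neurod1 they were Apc, Map2 and Rtn1 (0.99, 0.98 and 0.98), for Neurod2 they included Dpysl3 and Itsn1 (0.96 each), for Nhlh1 Clmp, Thra and Dcx (0.98, 0.97 and 0.97), and for Nhlh2 Gap43, Tubb2a and Ina (0.99, 0.98 and 0.98). Of these, Map2, Dpysl3, Dcx, Gap43 and Ina are also among the neuron markers used to class the tags. For Atoh1 they were Phf21b, Wdr36 and Pus7 (0.83, 0.80 and 0.79). These pairs correlated less over the 12 P12 clusters of at least 50 cells, at 0.22 (Nhlh1 with Thra) to 0.89 (Neurod2 with Itsn1). Nhlh2 with Tubb2a was at 0.26 there, and Atoh1 with Wdr36 at 0.30. Among the members over the tags, the 4 later ones correlated at 0.87 to 0.95 with each other, and Atoh1 at -0.62 to -0.45 with them. Over the 12 P12 clusters of at least 50 cells, Atoh1 correlated at -0.20 with Neurod1, -0.56 with Neurod2, 0.04 with Nhlh1 and 0.18 with Nhlh2. The sign for the Nhlh genes differed from that over the tags, but the sets of cells are unlike. The P12 clusters include the microglia-like and oligodendrocyte lineage-like ones, with Atoh1 at 9.29 and 25.3 CPM and Nhlh1 at 23.2 and 10.1 CPM. The 14 tags leave out the microglia-like tag G8. The part of these cells in the sign was not tested.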

How the data were processed

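Per the labels' protocols, tumours were dissociated with TrypLE and collagenase, red cells were lysed and 3′ ends were amplified by Drop-seq. CASAVA and mm10 stand in the submitters' processing notes; for the aligner, counter, annotation, strand setting and UMI collapse, nothing is stated (not given in the sources used here). For P12 the authors deposited counts, in whole numbers, for every gene in each of 6000 cells named by a barcode of 12 bases, taken as UMIs. The P24-30 table the authors deposited holds natural log values, ln(1 + 10000 × share of the cell's UMIs), and 100% of 6195642 values above 0 turned back into whole UMIs within 0.001.

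From these, cells were filtered, clustered per library without the 5 members (scanpy 1.11.5, 2000 variable genes, 30 components, 15 neighbours, Leiden resolution 1, seed 1) and named from fixed markers. An outside type needed a mean log2 fold of at least 2 over its markers, with at least 3 of them raised, a neuron-like name a mean of 1. These thresholds were set after the clusters were seen. Kept cells held 11873881 UMIs at P12 and 12124327 at P24-30. Ratios carry Clopper-Pearson intervals on the split of counts, shares Clopper-Pearson and levels Poisson ones. They cover counting error only, and for a share of 0 the limit is 3 cells over the total. Where a group had 0 UMIs of a gene, 3 counts stood in when genes past 2-fold were counted. No doublet caller was run. Column names of the P24-30 table carry no barcodes, so barcodes shared between libraries were not counted. The interval and thinning code was tested on simulated data. The named genes are the members, their 3 most alike genes (1 of those for Neurod2 is not reported here) and the listed pathway genes. The members and lists were chosen with earlier results of these data known. Alternatives covered cell filters, the CPM scale, cluster resolution, classes from marker cuts, thinning, deep cells, gene minimum, the median gene and tag choice.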

Additional observations from a re-analysis of the deposited data

How the results depend on the processing

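The count of members past 2-fold was 4 or 5 of 5 at P12 over 11 alternatives, 3 to 5 between the P24-30 tags over 9, and 0 between ages over 8. In the same alternatives 18.3% to 30.5%, 12.2% to 29.4% and 12.2% to 22.5% of all genes passed 2-fold. Neurod1, Neurod2, Nhlh1 and Nhlh2 kept their direction and stayed past 2-fold in every alternative of both class comparisons, with log2 ratios of 2.62 to 3.82, 3.84 to 5.49, 2.28 to 3.04 and 1.40 to 1.88 at P12. Where a minimum of 200 UMIs left Neurod2 out, the counts were 4 and 3. Atoh1 ranged from -2.62 to -0.84 at P12 and from -1.43 to 0.06 between the tags. Thinned to 500 UMIs, 24.4% of P12 and 36.1% of P24-30 Atoh1 cells had another member, and without thinning 62.5% and 72.3%. Under those settings a cell shows fewer or more UMIs of every gene. The P24-30 pairs below numbered 1 with at most 10% mitochondrial UMIs and 1 when thinned to 500 UMIs, in place of 3, and the cause was not tested. Atoh1 with Neurod1 stayed below with intervals apart in all 7 alternatives at both ages. Leaving out main-population clusters with another type's marker among their top genes (P12 cluster 0, P24-30 cluster 11), chosen after seeing the data, kept 6 pairs above and 3 below at each age. The share of Atoh1 cells does not use the P12 classes, so the marker-cut classes were not run for it. No paired analysis was possible because each age has 1 library.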
